A study of Homo sapiens with 12 samples.

Results

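PRC1 was silenced in RDES cells, a line established from Ewing sarcoma, with 2 different hairpins. The 4 arrays described here are those of the RDES derivative lines that carry a hairpin against PRC1, out of 12 arrays in the whole series, and they were chosen by their labels alone. One line carries shCDS, named for the coding sequence of PRC1, and the other carries shUTR, named for its untranslated region. Each was measured without doxycycline (Dox) and after 60 h in 1 µg/ml Dox, renewed at 48 h, with 1 Clariom D array per condition. The hairpins sit in a lentiviral vector that makes them only when Dox is present, and both lines were selected with puromycin, so the arrays without Dox carry the vector too. The other 8 arrays of the series are 4 of SK-N-MC cells with the same 2 hairpins and 4 of cells with a control hairpin (shCtrl), and they serve here only as a comparison.

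The sequences that tell the 2 lines apart are the 21-base stretches of the PRC1 transcript that the hairpins were designed against. They are written 5′ to 3′ in the sense of the transcript, as the study's oligo list gives them, and the capitals mark the 7 bases that pair with the seed of the guide strand (its bases 2 to 8).
shCDS target: caggaacattcaaAGGCATTt
shUTR target: gcctgacttctctACCACATa
The guide strand of the hairpin, which pairs with the target, is the reverse complement, again with the seed in capitals.
shCDS guide: aAATGCCTttgaatgttcctg
shUTR guide: tATGTGGTagagaagtcaggc
The seeds differ, and G and C make up 38.1% of the shCDS target and 47.6% of the shUTR target.

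PRC1 bundles antiparallel microtubules and holds the central spindle together while a cell divides. Its own transcript belongs to the group that builds up in late G2 and mitosis, together with AURKB, a kinase of the chromosomal passenger complex, MKI67, a protein that coats mitotic chromosomes, and FOXM1, a transcription factor that drives genes of this phase. JUN is a subunit of AP-1, a transcription factor that answers to growth and stress signals. In bulk samples, fewer cells in a phase and less RNA per cell cannot be told apart.

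The values are log2 signals as deposited. A gene was read from its brightest probe set, and 15102 genes with a mean of at least 6.5 over both RDES shPRC1 arrays without Dox were compared. The Dox(+) minus Dox(−) difference was formed inside each line, and a single difference of 1 log2 or more is a description with no test, since each condition has 1 array. The labels of the cell line were checked first. STAG2, a cohesin subunit, was between 13.79 and 14.01 in the 4 arrays, MGST1, a microsomal glutathione transferase, between 15.80 and 16.38, and BGN, a matrix proteoglycan, between 4.42 and 4.78. In both arrays labelled RDES shCtrl these genes were at 6.01 to 6.10, 5.74 to 5.94 and 15.59 to 15.67, far from the RDES shPRC1 arrays and near the 4 SK-N-MC shPRC1 arrays, which were at 5.84 to 6.06, 5.96 to 7.97 and 15.61 to 16.04. The 2 arrays labelled SK-N-MC shCtrl stood between the cell lines for STAG2 (9.15 and 9.32) and MGST1 (10.53 and 10.44) and with SK-N-MC for BGN (15.51 and 15.66). For that reason nothing was subtracted, the values of either shCtrl pair are only those of the arrays so labelled, and neither is a control measured in RDES cells like those of the shPRC1 lines. All 8 measured Ewing sarcoma markers passed the signal filter, with CD99, a surface protein of these tumours, at 16.63 to 16.84 and NKX2-2, a homeobox factor, at 9.07 to 10.25.

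In shCDS cells PRC1 had a level of 14.50 before and 10.54 after Dox. In shUTR cells the levels were 14.75 and 13.29. The Dox differences were therefore -3.96 and -1.47, which leaves 6.42% and 36.2% of the signal without Dox. Both arrays with Dox lay below both arrays without, and the shUTR difference was 37.0% of the shCDS difference on the log2 scale. PRC1 had the most negative difference of all genes tested in shCDS cells and was sixth from the bottom in shUTR cells. In cells with shCtrl the PRC1 differences were -0.11 in SK-N-MC and -0.03 in the arrays labelled RDES shCtrl. PRC1 lies on chromosome 15 of GRCh38 from 90966040 to 90994535 and was read by probe set TC1500010463.hg.1. With 2 arrays against 2, an exact two-sided permutation test gives p = 0.333 for PRC1, which is the smallest it can give, so no single gene can pass 0.05 in this way.

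FOXM1, AURKB, MKI67 and JUN had lower levels with Dox in shCDS cells and differed by -0.21 to 0.10 in shUTR cells. FOXM1 was at 13.67 without and 11.02 with Dox in shCDS cells and at 14.17 and 14.27 in shUTR cells. AURKB was at 11.04 and 8.61 in shCDS cells and at 11.63 and 11.65 in shUTR cells. For both genes the shCDS array with Dox stood more than 2 log2 below the other 3 arrays, which were close together. MKI67 was at 14.74 and 13.31 in shCDS cells and at 15.37 and 15.16 in shUTR cells, a smaller difference of -1.43 against -0.21. JUN was at 10.93 and 7.74 in shCDS cells and at 9.57 and 9.50 in shUTR cells. Its difference of -3.19 in shCDS cells therefore starts from a level 1.37 log2 above that of shUTR cells without Dox. The differences in the 2 shCtrl pairs were 0.07 and -0.02 for FOXM1, 0.47 and -0.06 for AURKB, and 0.20 and 0.66 for JUN.

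**Figure D1:**
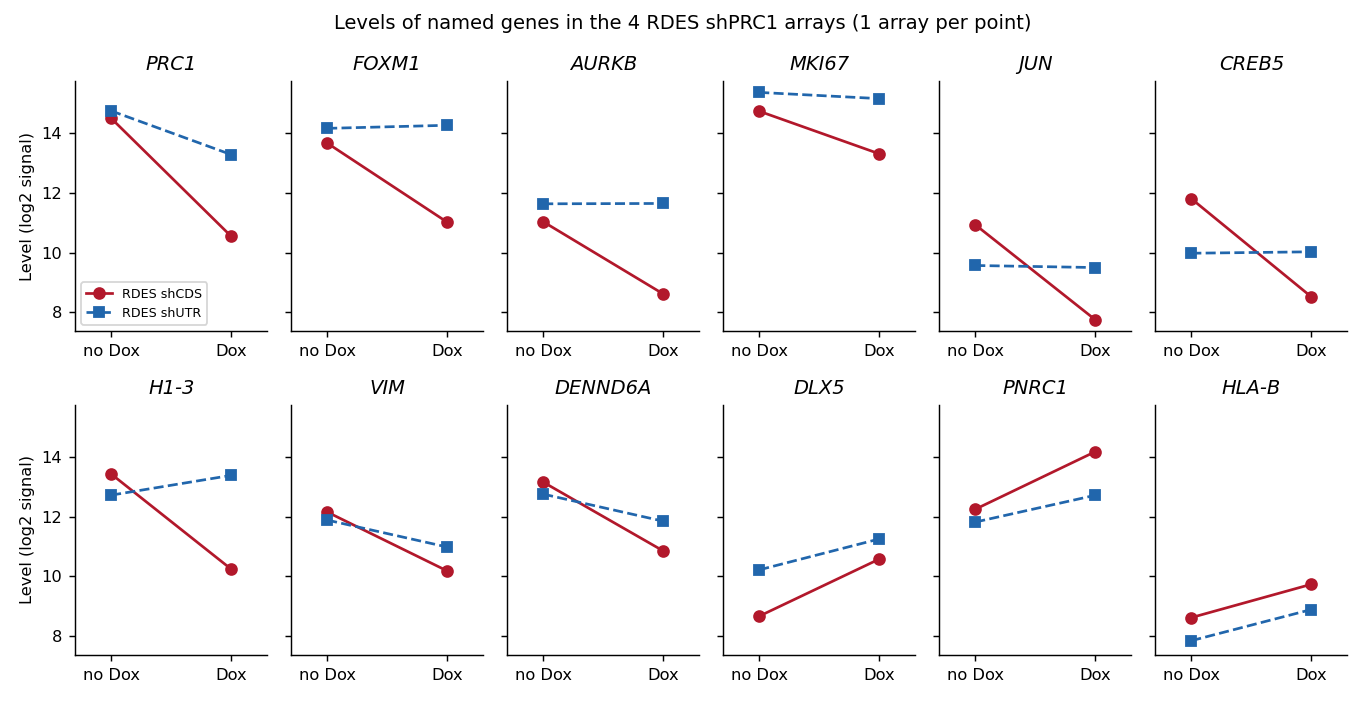
Levels (log2 signal) of 12 genes in the 4 RDES shPRC1 arrays, without Dox and with Dox, 1 array per point, shCDS as circles with a solid line and shUTR as squares with a dashed line. PRC1, VIM and DENND6A were lower with Dox in both lines and DLX5, PNRC1 and HLA-B higher in both, whereas FOXM1, AURKB, JUN, CREB5 and H1-3 were lower by over 2 log2 in shCDS cells and stayed near level or went up in shUTR cells.

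Over all genes the 2 lines had little in common. In shCDS cells 620 genes (4.11% of those tested) were lower with Dox by at least 1 log2 and 171 (1.13%) were higher. In shUTR cells 35 genes (0.232%) were lower and 147 (0.973%) were higher. In the shCtrl pairs the counts were 58 lower and 96 higher in SK-N-MC (0.384% and 0.636%), and 15 lower and 4 higher in the arrays labelled RDES shCtrl (0.0993% and 0.0265%), so that the 182 genes past 1 log2 in shUTR cells are close to the 154 of the SK-N-MC shCtrl pair. The differences of all genes were centred at -0.06 in shCDS and at 0.17 in shUTR cells, with an SD across genes of 0.49 and 0.35. Each array was also centred on its own median over the genes tested, which the filter chose by the arrays without Dox. The shCDS values then moved up by 0.10 and the shUTR values down by 0.23. The counts past 1 log2 became 465 lower and 247 higher in shCDS cells and 145 lower and 46 higher in shUTR cells. Among genes past 1 log2, the share that was lower thus went from 19.2% to 75.9% in shUTR cells. In shCDS cells it went from 78.4% to 65.3%. Of all 15102 genes, those below 0 went from 4412 to 8845 in shUTR cells and from 8491 to 6935 in shCDS cells. The balance of directions in shUTR cells thus depends on the scaling, and that in shCDS cells does so less.

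Across the 15102 genes the differences of both lines had a Pearson r of -0.08 and a Spearman rho of -0.09, a description over genes, which are not independent replicates. Of the 620 genes lower in shCDS cells, 145 (23.4%) were below 0 in shUTR cells, against 29.2% of all genes. Their median in shUTR cells was 0.19, against 0.17 for all genes. After centring, 358 of the 620 were below 0 in shUTR cells, with a median of -0.05 against -0.06 for all genes. Of the 620, 19 had an shUTR difference as large, relative to their own shCDS difference, as PRC1 had. Among the 171 genes higher in shCDS cells, 33 did so in the upward direction. Both counts use the values as deposited, were not repeated after centring and have no matching share over all genes. With the shUTR differences of all genes centred at 0.17, upward matches are easier to reach than downward ones. Neither count is therefore read as more or fewer than among all genes. Of the 171 genes higher in shCDS cells, 108 (63.2%) were above 0 in shUTR cells, against 70.8% of all genes. Of the 147 genes higher by at least 1 log2 in shUTR cells, 102 (69.4%) were below 0 in shCDS cells, against 56.2% of all genes, and of the 35 that were lower, 12 (34.3%) were.

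The same 620 genes had medians of -0.18 and -0.32 in the shCDS and shUTR lines of SK-N-MC, against 0.08 and -0.14 for all genes there. Of them, 65 were lower by at least 1 log2 in the former line and 35 in the latter. Of all 15102 genes, 1.35% and 2.61% were lower by that much in these lines. In the 2 shCtrl pairs their medians were 0.12 and -0.08, against 0.11 and -0.07 for all genes.

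**Figure D2:**
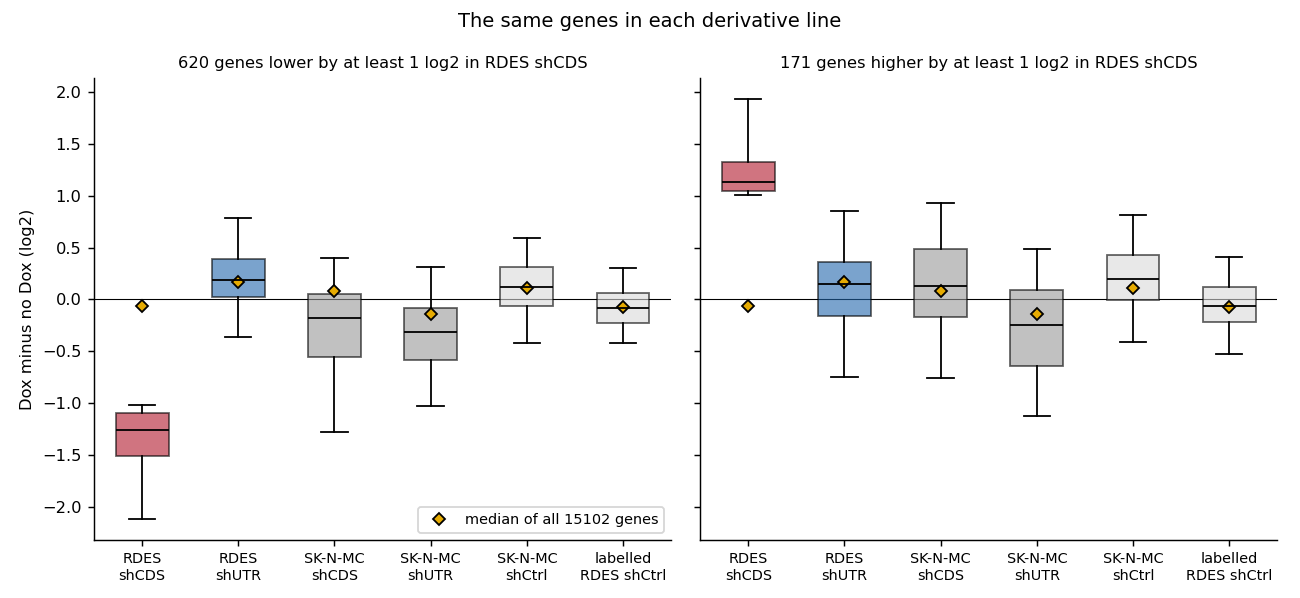
Dox differences (log2) in each of the 6 derivative lines for the genes that were lower (left, 620) or higher (right, 171) by at least 1 log2 in RDES shCDS cells, with boxes from the lower to the upper quartile, whiskers from the 5th to the 95th percentile and diamonds for the median of all 15102 genes. The RDES shCDS box is set by the choice of genes, and the RDES shUTR boxes lie around the median of all genes.

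Levels could be compared across the 4 arrays as well as inside a line. The shCDS array with Dox stood at least 1 log2 below the other 3 arrays for 340 genes (2.25%) and at least 1 log2 above them for 76 (0.503%). For each of the other 3 arrays these counts were between 2 and 17. The arrays without Dox differed from each other too: 494 genes (3.27%) were at least 1 log2 higher in the shCDS line and 79 (0.523%) at least 1 log2 lower. The genes lower with Dox in shCDS cells had a median difference of 0.21 between the lines without Dox (shCDS minus shUTR), against 0.16 for all genes. Gene lists described below differed in this. The median was -0.41 for G2/M genes, -0.555 for the chromosomal passenger complex and -0.41 for mitotic kinesins. It was 0.16 for S phase genes and 0.02 for replication-dependent histones. The 147 genes higher with Dox in shUTR cells had a median of 0.78, and the 35 lower ones -0.56. Genes chosen by the Dox difference of a line share its array without Dox with this comparison. Part of such a median, and its sign, therefore follows from the choice of genes.

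The lists of mitosis had medians between -2.01 and -0.52 in shCDS cells, against -0.06 for all genes, and the broadest of them, of G2/M genes, held 44 of the 620 genes lower by at least 1 log2. Gene lists are described by their counts and medians beside those of all genes, and members of several lists count in each. Of all genes in shCDS cells, 4.11% were lower by at least 1 log2 and 56.2% below 0, the shares beside every list here. All 4 members of the chromosomal passenger complex, which corrects the attachment of chromosomes to the spindle and works with PRC1 at the midzone, were lower by more than 1 log2. CDCA8, the borealin subunit, was at 11.01 without and 8.71 with Dox in shCDS cells and at 11.49 and 11.70 in shUTR cells. BIRC5, or survivin, was at 9.30 and 7.58, then 9.98 and 10.28. INCENP, the scaffold, was at 12.33 and 10.89, then 12.84 and 12.88. The shCDS array with Dox was the lowest of the 4 arrays for all 4 members, which is the case for 30.4% of all genes.

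Among 26 tested members of the spindle midzone and cytokinesis list, 11 were lower by at least 1 log2 in shCDS cells, PRC1 included, and the median was -0.80. In shUTR cells the median was 0.06 and PRC1 was the only member past 1 log2. ECT2, which switches on RhoA for the contractile ring, was at 12.62 and 10.87 in shCDS cells and at 12.70 and 12.92 in shUTR cells. ANLN, the ring scaffold anillin, was at 14.46 and 12.74, then 14.83 and 14.91. Its second, much dimmer probe set differed by 0.34 in shCDS and 0.45 in shUTR cells. KIF14, a kinesin that binds PRC1, was at 11.28 and 9.58, then 12.12 and 11.92. KIF4A, the kinesin that PRC1 recruits to the midzone, was named after its values were seen and was at 12.04 and 10.58, then 12.68 and 12.86. Over the 26 members the shUTR differences ran from -1.47, that of PRC1, to 0.52. The membrane-cutting and septin members lay near 0, and CHMP4C, an ESCRT subunit of the abscission checkpoint, was higher in both lines, by 0.86 and 0.52.

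Of 9 mitotic kinesins tested outside the midzone, 8 were lower by at least 1 log2 in shCDS cells (median -1.47) and none in shUTR cells (median 0.09). KIFC1, which focuses spindle poles, was at 12.79 and 10.58 in shCDS cells and at 13.31 and 13.61 in shUTR cells. KIF11, which pushes the poles apart, was at 13.39 and 11.46, then 13.51 and 13.54. KIF15 differed by -1.98 and 0.08 and KIF2C, a microtubule depolymerase, by -1.90 and 0.48. For KIF2C a dimmer second probe set differed by -0.84 and -0.25. KIF15 had 7 further probe sets, of which 6 lay between -1.96 and -0.40 in shCDS cells, and the dimmest of the 7 was at 0.02.

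The broader list of G2/M genes gave the same picture. Of 56 members 44 were lower by at least 1 log2 in shCDS cells, against 4.11% of all genes, and none in shUTR cells. The medians were -1.37 and 0.17. The shCDS array with Dox was the lowest of the 4 arrays for 55 members and stood at least 1 log2 below the other 3 for 43. SPAG5, the spindle protein astrin, was at 9.57 and 7.33 in shCDS cells and at 9.99 and 9.84 in shUTR cells. UBE2S, which extends ubiquitin chains for the anaphase-promoting complex, was at 11.14 and 9.10, then 11.17 and 11.41. Its dim second probe set differed by 0.27 and -0.415. DEPDC1 differed by -1.89 and 0.14 and GTSE1, a microtubule-binding partner of p53, by -1.60 and -0.13. In shUTR cells 11 of the 56 were below 0 as deposited and 36 once the arrays were centred, beside 4412 and 8845 of all 15102 genes. In SK-N-MC, where PRC1 differed by -4.02 and -2.93 with shCDS and shUTR, the medians of this list were -0.03 and -0.36, beside 0.08 and -0.14 for all genes.

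Centromere and kinetochore proteins, which attach chromosomes to microtubules, had a median of -1.38 in shCDS and 0.18 in shUTR cells. In shCDS cells 21 of 33 were lower by at least 1 log2, against 4.11% of all genes. SPC25 of the NDC80 complex differed by -1.77 in shCDS cells and by 0.11 in shUTR cells, and HJURP, which loads the centromeric histone CENPA, was at 12.77 and 11.17 in shCDS cells and at 13.69 and 13.61 in shUTR cells. CENPA itself was at 8.95 and 7.27, then 9.85 and 9.85. Spindle checkpoint genes had a median of -0.76 with 6 of 13 past 1 log2, among them CDC20, the activator of the anaphase-promoting complex, by -1.48 in shCDS and 0.02 in shUTR cells, and BUB1, a checkpoint kinase, by -1.65 and 0.63. Cohesin and condensin genes had a median of -0.69, with CDCA5, which guards cohesin on chromosomes, at -2.11 and 0.25. By a dimmer second probe set CDCA5 differed by -0.29 and 0.89. Centriole duplication genes had a median of -0.52, with PLK4, the kinase that starts duplication, at -1.52 and -0.18.

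**Figure D3:**
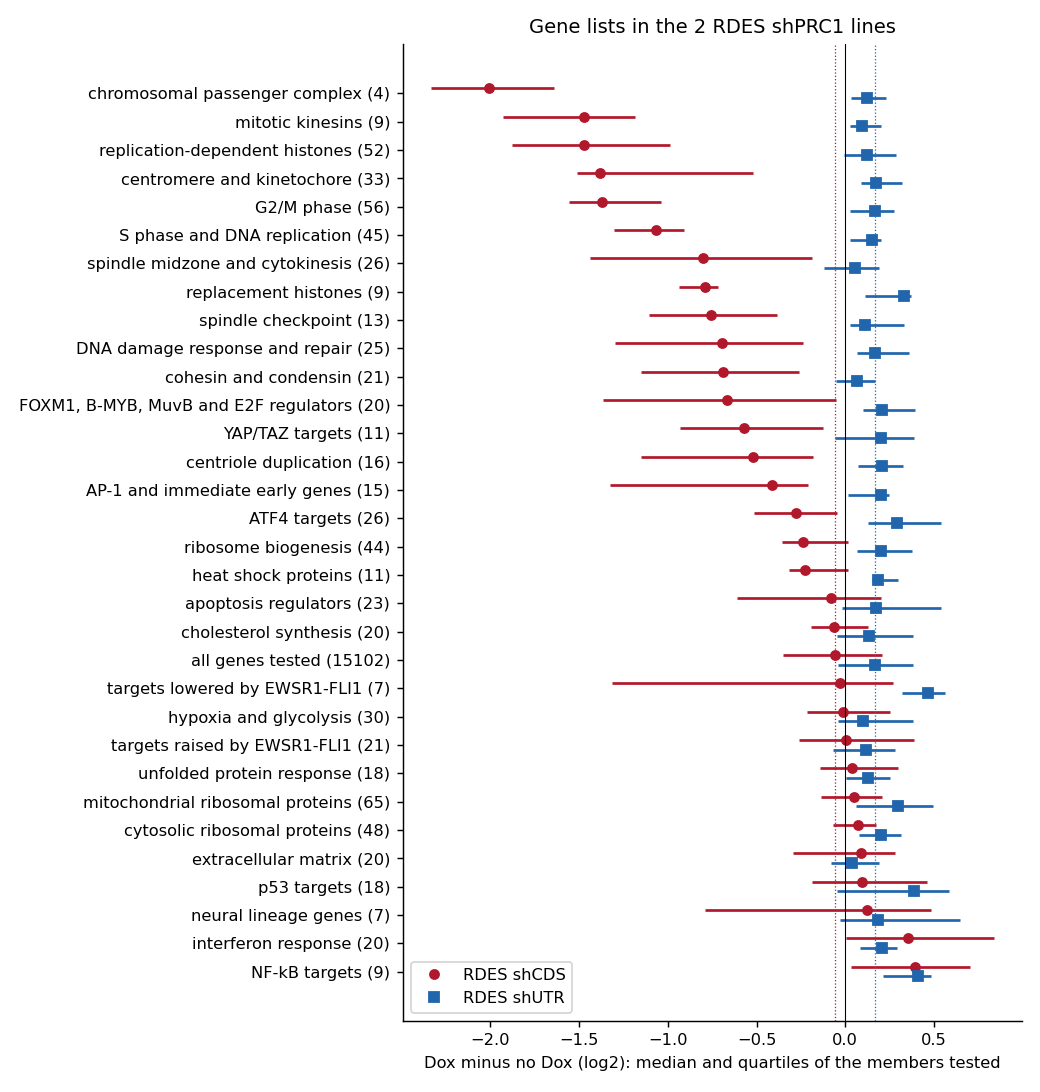
Dox differences (log2) by gene list in both RDES shPRC1 lines, with the number of members tested in parentheses, points for the median, bars from the lower to the upper quartile and dotted lines for the median of all genes in each line. The lists of mitosis, S phase and histones lie left of the shCDS line for all genes, while every shUTR median lies between 0.04 and 0.47.

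Regulators of these programmes were lower as well. Of 20 members of the FOXM1, B-MYB, MuvB and E2F list, 9 were lower by at least 1 log2 in shCDS cells and none in shUTR cells, with medians of -0.67 and 0.21. Beside FOXM1 these were E2F1, an activator of S phase genes, at 10.82 and 8.90 in shCDS cells and at 10.16 and 10.55 in shUTR cells, MYBL2, the B-MYB factor, at -1.49 and -0.12, and the E2F repressor E2F7 at -1.38 and 0.11, with RBL1, E2F2, E2F8, E2F3 and LIN9 past 1 log2 too. For E2F1 a dim second probe set differed by -0.09 and -0.16. E2F4 and RBL2, which form the resting-cell repressor complex, differed by -0.003 and 0.04 in shCDS cells.

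Promoters of many G2/M genes carry the cell cycle genes homology region (CHR), to which the MuvB complex binds, near the start site. The letters TTTGAA or TTCGAA, on either strand, were found in the 300-base promoters (RefSeq, GRCh38.p14) of 32 of 46 G2/M genes with a promoter in the table (69.6%), and in 12.0% of the 9181 promoters of all genes tested. Of the genes lower by at least 1 log2 in shCDS cells, 442 had a promoter in the table and 113 of these held the letters (25.6%). The share was 12.1% among the genes that were higher. The letters of the CCAAT box (CCAAT, either strand) stood together with a CHR in 17.2% of the promoters of genes lower in shCDS cells, against 5.32% of all, and E2F letters (TTTCCCGC, TTTCGCGC, TTTGCCGC or TTTGGCGC, either strand) in 14.7% against 5.58%. A match of letters is a description and no sign of binding. The windows below belong to the 5 G2/M genes with the most negative differences in shCDS cells whose match lies with its window before the start site. They are shown 5′ to 3′ in the sense of the gene, with 1 match to the CHR letters of either strand in capitals. The HMMR window holds the letters once more, in lower case directly before the capitals.
DEPDC1, chr1:68497092-68497121, minus strand: ccctctatgctaTTCAAAtcggcggcgggg
PSRC1, chr1:109283157-109283186, minus strand: gggcctgagagaTTCGAAaggagccccgcc
GTSE1, chr22:46296832-46296861, plus strand: ctcggagcccttTTCAAAccgaccaatcgg
HJURP, chr2:233854629-233854658, minus strand: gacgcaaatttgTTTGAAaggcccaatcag
HMMR, chr5:163460598-163460627, plus strand: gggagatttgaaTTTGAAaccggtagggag
The 5 genes differed by -1.89, -1.61, -1.60, -1.60 and -1.57 in shCDS cells. In shUTR cells PSRC1 was higher by 1.24 and the other 4 lay between -0.13 and 0.46.

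Replication genes shifted with those of mitosis. All 45 members of the S phase list were below 0 in shCDS cells, against 56.2% of all genes. By at least 1 log2, 26 of them were lower, against 4.11% of all genes. The medians were -1.07 in shCDS and 0.15 in shUTR cells. MCM10, which helps to open replication origins, was at 9.44 and 7.23 in shCDS cells and at 9.14 and 9.48 in shUTR cells. CDC45, part of the replicative helicase, was at 10.73 and 9.02, then 10.84 and 10.80. RRM2, the ribonucleotide reductase subunit, was at 13.86 and 12.24, then 13.88 and 13.96. DNA damage response genes had a median of -0.69 in shCDS cells, with 9 of 25 lower by at least 1 log2, against 4.11% of all genes. RAD54L and BRCA1, which act in homologous recombination, differed by -1.91 and -1.76 in shCDS cells and by 0.17 and 0.36 in shUTR cells, and a dimmer second probe set of RAD54L by -0.73 and -0.15.

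Replication-dependent histones, whose transcripts are made in S phase and usually lack a poly(A) tail, held 6 of the 12 most negative differences in shCDS cells. Of 52 measured members 51 were below 0 in shCDS cells and 38 were lower by at least 1 log2, with a median of -1.47. Of all genes 56.2% were below 0 and 4.11% were lower by that much. In shUTR cells the median was 0.12 and no member was past 1 log2. The linker histone H1-3 was at 13.43 and 10.24 in shCDS cells and at 12.72 and 13.38 in shUTR cells. H1-2 was at 11.37 and 8.41, then 10.90 and 11.51. H2BC10 was at 11.75 and 8.88, then 11.81 and 11.74, and H2BC14 at 13.94 and 11.06, then 14.94 and 15.14. The shCDS array with Dox was the lowest of the 4 for 50 of the 52, against 30.4% of all genes. H1-1 was the only member above 0 in shCDS cells (0.49). Histone genes of a family are nearly identical, so a probe set may read several of them. All 9 tested members of the replacement histone list were below 0 in shCDS cells (median -0.79). CENPA and H2AX, the variant marked at DNA breaks, were past 1 log2.

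Genes outside cell division were also among the most negative differences in shCDS cells. CREB5, a bZIP transcription factor, was at 11.81 and 8.51 in shCDS cells and at 9.98 and 10.03 in shUTR cells, and, like JUN, it began from a higher level in the shCDS line. RRBP1, a ribosome-binding protein of the endoplasmic reticulum, was at 9.67 and 6.77, then 9.75 and 9.93. A second, dim probe set of RRBP1 was at 4.24 and 4.46, then 5.17 and 4.71. Of 15 AP-1 and immediate early genes, 5 were lower by at least 1 log2 in shCDS cells, against 4.11% of all genes. Their median was -0.41. ATF3, a stress-induced bZIP factor, was at 7.92 and 5.70 in shCDS cells and at 6.89 and 7.35 in shUTR cells, JUND was at 7.51 and 5.82, then 6.70 and 6.79, and DUSP1, a phosphatase of MAP kinases, was at 8.81 and 7.20, then 7.52 and 7.64. For JUN and each of these 3 genes the shCDS array without Dox was the highest of the 4 arrays and the shCDS array with Dox the lowest. JUN differed by -1.46 and -1.31 in the SK-N-MC shCDS and shUTR lines.

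The 12 most positive differences in shCDS cells were smaller in size than the 12 most negative. GCNT4, a glycosyltransferase of mucin-type sugars, was at 8.76 and 11.08 in shCDS cells and at 6.87 and 6.84 in shUTR cells. TMEFF2, a membrane protein with follistatin domains, was at 8.29 and 10.60, then 8.17 and 8.04. SLC16A4, a monocarboxylate transporter family member, was at 9.13 and 11.20, then 9.07 and 8.30. Each of the 3 was highest in the shCDS array with Dox, and GCNT4 was already 1.89 log2 higher in the shCDS than in the shUTR line without Dox. TLR3, a sensor of double-stranded RNA, was at 6.31 and 8.35, then 7.13 and 7.49, ETV5, an ETS factor, at 7.87 and 9.84, then 6.17 and 6.70, and DKK2, a Wnt antagonist, at 10.66 and 12.56, then 9.89 and 10.21. SSXP5, LINC00467 and RGL1 were higher by 2.01, 1.96 and 1.96 in shCDS cells and differed by 0.06, -0.96 and 0.23 in shUTR cells. Of the interferon response list 3 of 20 members were higher by at least 1 log2 in shCDS cells (IFIH1 by 1.31, OAS1 by 1.24 and IFI6 by 1.15) with a median of 0.36, and HERC5, named after its values were seen, was lower (-1.22). NF-kB targets had medians of 0.39 and 0.41 over 9 members, with TNFAIP3, an inhibitor of the pathway, at 1.58 and 0.41 and NFKB2 at 1.02 and 0.51. Beside 1.13% and 0.973% of all genes past 1 log2 upward, these counts rest on few members.

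**Figure D4:**
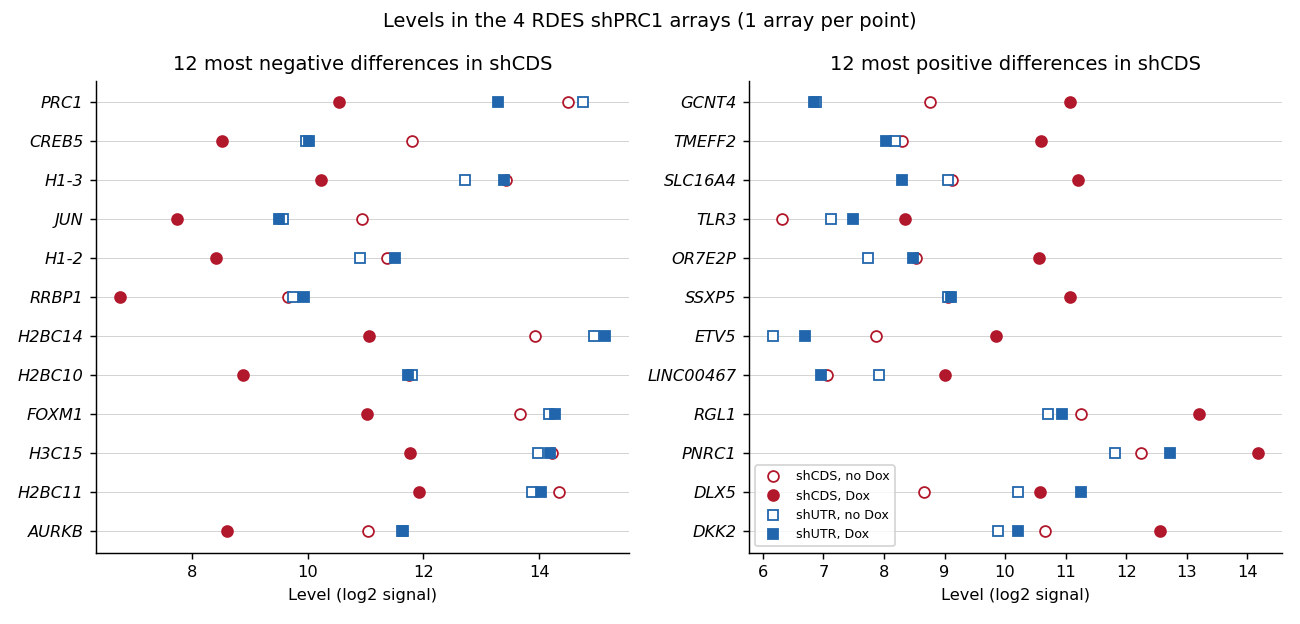
Levels (log2 signal) in the 4 RDES shPRC1 arrays of the 12 genes with the most negative differences (left) and the 12 with the most positive differences (right) in shCDS cells, open symbols without Dox, filled symbols with Dox, circles for shCDS and squares for shUTR. For PRC1, PNRC1 and DLX5 the filled square also lies away from the open square, in the same direction as in shCDS cells, while for most of the other genes in the left panel the squares lie close together.

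Few genes moved alike in both lines. PRC1 was the only gene lower by at least 1 log2 in both (0.00662% of genes), and MFAP4, DLX5, HLA-B and VWA5B1 were the 4 that were higher in both (0.0265%). DLX5, a homeobox factor of bone development, was at 8.66 and 10.58 in shCDS cells and at 10.22 and 11.25 in shUTR cells. HLA-B, a class I antigen-presenting molecule, was at 8.61 and 9.73, then 7.84 and 8.89. MFAP4, a protein of elastic microfibrils, was at 10.61 and 11.68, then 10.72 and 11.72, and VWA5B1 was at 7.35 and 8.46, then 7.47 and 8.56. In the shCtrl pairs the differences were 0.52 and 0.03 for DLX5, -0.33 and -0.48 for HLA-B, 0.04 and 0.23 for MFAP4 and 0.10 and 0.28 for VWA5B1. HLA-B was lower with Dox in both SK-N-MC shPRC1 lines (-0.74 and -0.96).

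**Figure D5:**
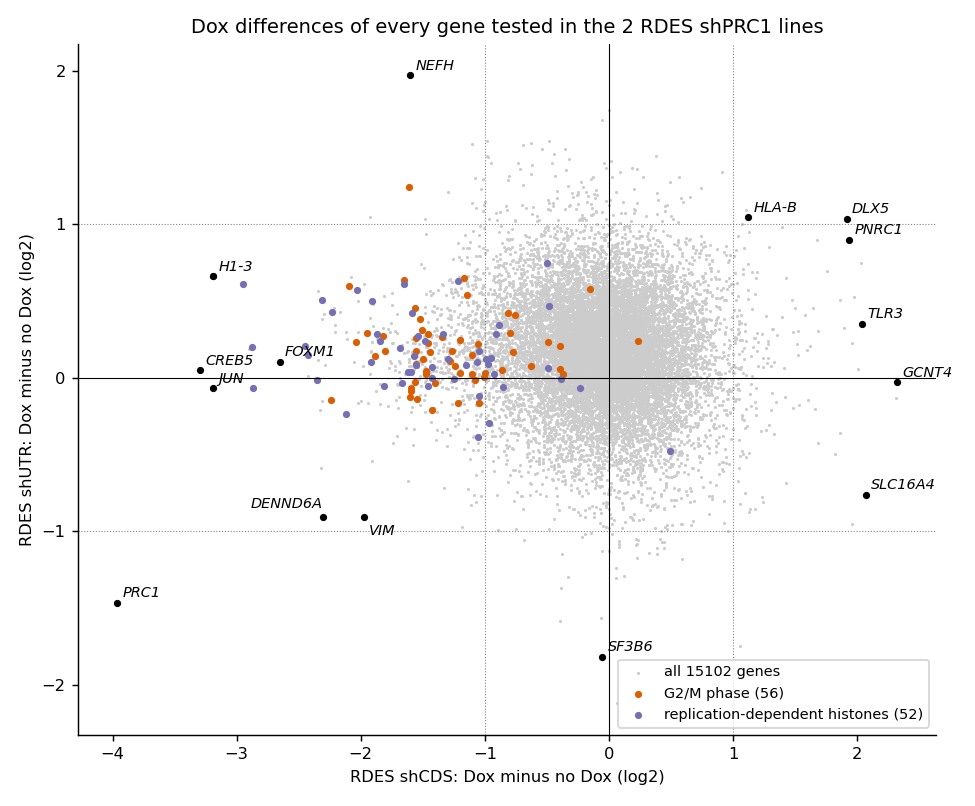
Dox difference (log2) of every gene tested in RDES shCDS cells (x axis) against RDES shUTR cells (y axis), with G2/M genes and replication-dependent histones in colour and named genes in black. Dotted lines mark 1 log2, PRC1 is the only gene past both lower lines, and the coloured genes spread along the x axis while staying near 0 on the y axis.

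The mean of both lines was tested with limma over the 4 arrays with hairpin line as a block. It called 12 of 15102 genes (0.0795%) at an adjusted p under 0.05, 9 lower (0.0596%) and 3 higher (0.0199%), and 618 had an unadjusted p under 0.05. PRC1 had a mean difference of -2.71 ± 1.76 (SD, n = 2 lines; adjusted p = 3.29e-12, limma). The other genes lower in both lines were DENND6A, a regulator of Rab GTPases, with -2.31 and -0.91 (adjusted p = 0.00271, limma), VIM, the intermediate filament vimentin, with -1.98 and -0.90 (adjusted p = 0.0121, limma), MIR4521 with -2.32 and -0.59, H2BC10 with -2.87 and -0.07 and JUN with -3.19 and -0.07. CREB5, RRBP1 and H2BC14 passed for the mean although each was above 0 in shUTR cells. The genes that rose were DLX5 (mean 1.48 ± 0.62, SD, n = 2 lines; adjusted p = 0.0113, limma), PNRC1, a nuclear receptor coactivator, with 1.93 and 0.90, and the pseudogene OR7E2P with 2.03 and 0.75. With 1 residual degree of freedom and 524 prior degrees of freedom this test sets nearly the same spread for every gene. The SE was 0.320 for PRC1 and 0.315 for VWA5B1, whose SDs between the 2 lines were 1.76 and 0.01. No gene passed without the block or with the spread pooled over all 6 lines. With an RDES line left out, the lone remaining line was assumed to vary like the SK-N-MC shPRC1 and shCtrl lines, a fit of another form. It called 142 genes for shCDS cells and 0 for shUTR cells, and DLX5 and OR7E2P passed in neither (adjusted p = 0.063 and 0.06 for shCDS cells, limma).

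VIM and DENND6A were the nearest to PRC1 in moving down with both hairpins. DENND6A was at 13.16 and 10.85 in shCDS cells and at 12.76 and 11.85 in shUTR cells, and VIM at 12.15 and 10.18, then 11.88 and 10.98. Both arrays with Dox lay below both arrays without for each gene. DENND6A also differed by -2.66 and -1.17 in the SK-N-MC lines and by 0.10 and -0.13 in the shCtrl pairs, whereas VIM differed by -0.05 and -0.40 in SK-N-MC. A dim second probe set of VIM differed by 0.37 and -0.18 in RDES. The probe set of MIR4521 was at 9.89 and 7.57 in shCDS cells and at 11.90 and 11.31 in shUTR cells. It is annotated to the gene of this microRNA, and does not separate the mature form from longer transcripts. MIR4521 lies on chromosome 17, with its mature form at 8186948 to 8186969, at lower coordinates than AURKB, which spans 8204731 to 8210575 (GRCh38). The mature form in RefSeq, with its seed in capitals, is shown because it is the only microRNA gene that passed.
hsa-miR-4521: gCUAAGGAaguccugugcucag

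The size of the gap between hairpins was fitted with limma. Each hairpin in RDES is a single line with 1 array per condition, so this sets 1 line against 1, and all of the spread was borrowed from the SK-N-MC shPRC1 lines and the shCtrl lines. The p-values and intervals therefore assume that the RDES lines vary as those do, and they compare these 2 lines rather than the hairpins in general. A single gene, H1-3, passed (-3.86, 95% interval -4.76 to -2.95, adjusted p = 0.0392, limma), and missed the threshold with no signal filter (adjusted p = 0.0695, limma), while 1958 genes (13% of those tested) had an unadjusted p under 0.05. The gap for PRC1 itself was -2.49 (95% interval -3.66 to -1.33, adjusted p = 0.135, limma). The gaps were -2.76 for FOXM1 (95% interval -3.64 to -1.87, adjusted p = 0.0745, limma), -3.12 for JUN (95% interval -4.07 to -2.17, adjusted p = 0.0745, limma), and -2.44 for AURKB (95% interval -3.43 to -1.44, adjusted p = 0.0973, limma). These intervals do not reach 0, but they are not adjusted for the number of genes. The gap was next largest for NEFH, the heavy neurofilament subunit, which was at 9.82 and 8.22 in shCDS cells and at 8.84 and 10.81 in shUTR cells and so moved in opposite directions. SOX11, a neural transcription factor, did the same, at 11.85 and 9.92, then 11.08 and 12.12. On the other side SLC16A4, LINC00467, KRT18P60, TMEFF2, GCNT4, LINC00648, LINC01066 and SLC25A24P1 had gaps between 2.19 and 2.92, none of which passed. KRT18P60 and SLC25A24P1 met the signal filter only through the shUTR array without Dox (7.87 and 7.29, against 5.94 and 5.73 in shCDS cells). That array also enters the gap, so for these genes the filter itself favours a gap of this sign.

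The 12 most negative differences and 12 most positive differences in shUTR cells were mostly of other genes, and those named here were chosen after their values were seen. Among the negative ones SF3B6, a splicing factor of the U2 particle, was at 13.86 and 12.04 in shUTR cells and at 14.86 and 14.81 in shCDS cells, and ELMOD2 at 13.51 and 12.22, then 13.86 and 13.98. In the SK-N-MC shUTR line these genes differed by -3.85 and -1.62, and in its shCDS line by -0.19 and -0.39. Among the positive ones, beside NEFH, were IFIT5, an interferon-induced RNA-binding protein, at 7.63 and 9.38 (shCDS cells 8.91 and 8.91), PRKAA2, a catalytic subunit of AMP kinase, at 6.70 and 8.24 (shCDS cells 7.71 and 6.73), and FOXO4, a forkhead factor, at 8.71 and 10.23 (shCDS cells 8.56 and 7.46). HOXC11 was at 10.20 and 11.66 and the metallothionein pseudogene MT1DP at 11.78 and 13.31.

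The lists of other programmes were read beside medians of -0.06 in shCDS and 0.17 in shUTR cells for all genes. YAP/TAZ targets had medians of -0.57 and 0.20 with 8 of 11 below 0 in shCDS cells, ATF4 targets -0.28 and 0.29, ribosome biogenesis genes -0.24 and 0.20, and the 7 tested targets lowered by EWSR1-FLI1, the fusion that drives these tumours, -0.03 and 0.47. The medians were 0.09 and 0.39 for p53 targets, -0.08 and 0.17 for apoptosis regulators, -0.07 and 0.14 for cholesterol synthesis, 0.04 and 0.13 for the unfolded protein response, 0.07 and 0.20 for cytosolic ribosomal proteins, and 0.01 and 0.12 for targets raised by EWSR1-FLI1. Among p53 targets TP53INP1 was at 8.09 and 8.54 in shCDS cells and at 7.02 and 8.14 in shUTR cells. In the hypoxia and glycolysis list (medians -0.01 and 0.10) BNIP3L, a mitophagy receptor, was at 14.81 and 12.48 in shCDS cells and at 14.86 and 14.65 in shUTR cells, and it also differed by -3.41 and -1.35 in SK-N-MC. YAP1, the coactivator for which the YAP/TAZ list is named, was at 11.23 and 9.90, then 11.64 and 11.84. Of the markers of other cells, 2 of 6 epithelial, 2 of 5 haematopoietic and 2 of 6 endothelial markers passed the filter. These were KRT8 and KRT18, LCP1 and SPI1, and EMCN and VWF. Without Dox, in shCDS and shUTR cells, EMCN was at 9.861 and 8.499 and KRT18 at 8.323 and 7.684. KRT8 was at 7.978 and 8.206 and LCP1 at 6.84 and 7.208. The summed signal of each list stayed between 8.48 and 10.13 log2 over the 4 arrays. No EPCAM, PTPRC or PECAM1 value was above 6.5, but CD3E reached 6.816 in shUTR cells with Dox. Of 6 fibroblast markers 5 passed, with a summed signal of 13.01 to 13.89.

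Finally, RDES was set against SK-N-MC. Over the 4 shPRC1 lines 2 of 15102 genes (0.0132%) had a Dox difference that differed between cell lines (limma on the differences, 631 genes with an unadjusted p under 0.05). STC1, the hormone stanniocalcin, was at 9.21 and 10.27 in RDES shCDS cells and at 9.76 and 10.01 in RDES shUTR cells, and differed by -2.99 and -2.43 in the SK-N-MC lines (adjusted p = 0.0198, limma). ALDOC, a brain aldolase of glycolysis, was at 8.03 and 9.11, then 8.22 and 7.98, and differed by -3.48 and -2.56 in SK-N-MC (adjusted p = 0.0399, limma). For PRC1 the RDES minus SK-N-MC difference was 0.76 ± 0.64 (SE, n = 2 lines each) and for FOXM1 -0.67 ± 0.64, neither past the threshold. No G2/M, S phase or histone gene passed this test, which averages both hairpins within a cell line, so the differences of these genes in RDES shCDS cells are not shown to be particular to RDES.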

How the data were processed

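RNA of 12 cultures (1 for each of 6 derivative lines without and with Dox) was hybridized to Clariom D arrays. The authors deposited log2 signals per probe set, made by SST-RMA (background correction, quantile normalization, gene-level summary) in Expression Console 1.4 by the series description and in Transcriptome Analysis Console by the paper. The submitters' processing notes name RMA and hg38. For cell number and RNA kit the paper and the sample labels differ. Quantile normalization gives all arrays like distributions (array medians 5.29 to 5.40), so a shift shared by most probe sets is removed upstream. The genes tested are a part of these and can still share a shift. In shUTR cells their median difference was 0.17 and 70.8% were above 0.

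Genes came from 36176 of 135750 probe sets, those annotated with a single symbol, while 1119 with several symbols and 98455 without one were set aside. The brightest probe set by mean over the 4 RDES shPRC1 arrays stood for each of 33616 genes, and 15102 genes averaging 6.5 or more in the 2 Dox(−) arrays were tested. As a result, 68 genes in shCDS and 64 in shUTR cells that reached 6.5 with a rise of at least 1 log2 were not counted. Fits (limma 3.58.1, run in R 4.3.3; two-sided, Benjamini-Hochberg over all genes tested, threshold 0.05) used lmFit with eBayes and were tested on simulated data. The simulation gave all genes a common spread and, for the fit with the line as a block, the same change in both lines. It therefore does not show how that fit behaves where the lines differ, as they do here. The first fit used the 4 RDES shPRC1 arrays with Dox and hairpin line as terms. The fits between hairpins and between cell lines used the Dox differences of 6 and of 4 lines. Replicate arrays of a condition do not exist, so all spread came from derivative lines, and precision is limited by how few arrays there are. In the first fit the spread was nearly common to all genes. Its p-values therefore do not measure how far the 2 lines lie apart for a given gene. In the fit between hairpins the spread came from the other lines.

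The members and gene lists were chosen with earlier results of these data known. Named genes are PRC1, FOXM1, JUN, AURKB and MKI67, the 12 most negative and 12 most positive differences in shCDS cells, genes past 1 log2 in both lines, the 8 largest gaps of each sign between hairpins, up to 4 members of each list by mean difference, and genes that passed a test. Other list members are examples chosen after their values were seen. Alternatives covered the block, the spread, the prior variance, the signal filter, the probe set choice, centring, subtraction of the arrays labelled RDES shCtrl, the fold and leaving out each line.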

Additional observations from a re-analysis of the deposited data

Results flagged for a closer look

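H1-3 was the gene past the threshold when the 2 RDES lines were set against each other (shCDS minus shUTR -3.86, adjusted p = 0.0392, limma), lower with Dox in shCDS cells and higher in shUTR cells. Each hairpin is a single line here, the spread came from the other lines, and the call was lost with no signal filter (adjusted p = 0.0695, limma). ALDOC and STC1 had Dox differences that differed between RDES and SK-N-MC (RDES minus SK-N-MC 3.44, adjusted p = 0.0399, and 3.36, adjusted p = 0.0198, limma), with both SK-N-MC lines below 0 for both genes. Probe sets without a gene name were used in no comparison: of 20630 that passed the signal filter, 3.95% were past 1 log2 in RDES shCDS cells (521 lower, 293 higher) and 2.58% in RDES shUTR cells, against 2.49% for SK-N-MC with shCtrl and 0.824% in the arrays labelled RDES shCtrl.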

How the results depend on the processing

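The 12 genes called for the mean of both lines became 0 with no replicate block and 0 with the spread pooled over 6 lines, 7 with robust eBayes, 1 with the filter at 7.5, 2 with the mean of all probe sets, 1 with centred arrays and 123 after subtraction of the arrays labelled RDES shCtrl, and 0 to 142 when either RDES line was left out, a fit in which the lone line was assumed to vary like the other lines. PRC1 was called in all of these fits except the 3 that gave 0. With either RDES line left out the values ran from -3.29 to 0.048 for CREB5, -2.90 to 0.18 for RRBP1, -2.87 to 0.20 for H2BC14, -2.65 to 0.10 for FOXM1 and -2.42 to 0.012 for AURKB. The single call between hairpins became 2 with a trend, with the filter at 7.5 and with the mean of all probe sets, 0 with no filter, and 73 with the spread of the SK-N-MC shPRC1 pair alone. The 2 calls between cell lines became 0 with a trend, 1 with the filter at 7.5, 147 after subtraction of the labelled shCtrl pairs, and 5 to 62 when a shPRC1 line was left out, and PRC1 then ran from -0.489 to 2.006. In shCDS cells alone, 160 genes were lower and 29 higher at 1.5 log2, 2515 and 1332 at 0.5 log2, and the 171 higher became 414 with no filter and 360 after subtraction. In shUTR cells alone, 5 were lower and 8 higher at 1.5 log2, 545 and 2297 at 0.5 log2, 218 and 384 with no filter, 104 and 520 after subtraction, and 145 and 46 with centred arrays, and the 35 lower became 12 with the filter at 7.5. The causes were not tested. No paired analysis beyond the line block was possible because each condition has 1 array.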
